A study of Mus musculus with 13 samples.

Results

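Hair bulge cells, sorted from the skin, were compared with epithelium of the small intestinal villus. These are 3 hair bulge arrays and 3 Villus arrays of 13 in the series, and the other 7 hold intestinal crypt cells sorted for bright GFP (GFP_High, 4 arrays) or dim GFP (GFP_Low, 3 arrays). All 13 samples came from Lgr5-EGFP-ires-CreERT2 mice on a C57BL/6 background, in which EGFP is expressed from the Lgr5 locus, so that both sides of the comparison carried the same knock-in allele, and neither had a further treatment in the labels. Total RNA was hybridised to Affymetrix HT MG-430 PM arrays. Each sort pooled 3 mice, whose age the labels do not state. The 3 hair bulge titles call these cells GFPdim and the methods place them among the cells with low Lgr5, whereas another label gives both the hair bulge and the Villus samples a high Lgr5 level. The labels give the source of the skin arrays as sorted hair follicle cells, whereas the methods name the hair bulge. Skin cells were freed by scraping and trypsin digestion and then sorted. Villus epithelium was loosened with EDTA and EGTA. The methods place all RNA isolation after FACS but name no gate for Villus, so whether it was sorted is not known here. Tissue, dissociation and sorting therefore cannot be told apart in any difference below, and since these are bulk RNA samples, fewer cells of a type cannot be told apart from less RNA per cell.

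The bulge is the part of the outer root sheath of the hair follicle where its long-lived stem cells rest between rounds of hair growth. It belongs to a stratified epithelium: its cells sit on a basement membrane through hemidesmosomes, are built on the keratin pair Krt5 and Krt14, and depend on the transcription factor p63. The villus is a single layer of cells, mostly absorptive enterocytes, which carry a brush border of microvilli, break down and take up nutrients, and pack fat into chylomicrons. Both are renewed by Lgr5-positive stem cells, but the villus lies beyond the stem cell zone.

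Every value below is an intensity on the linear scale, summarised from each probe set by the authors, with 1 probe set for each of 17098 genes. Differences are hair bulge minus Villus on the log2 scale with the standard error (SE) from limma, and a gene was called changed at a Benjamini-Hochberg adjusted p under 0.05 over all 17098 genes. An array gives some signal for genes that are not transcribed. The level of 86 probe sets for smell, pheromone and bitter taste receptors served as a yardstick, and the 95th percentile of their values was an intensity of 7.9, called the receptor level here. Where 1 of the groups was not above it, the fold difference is given as a lower bound. Intensities of different genes rest on different probes and are not set against each other. Errors beside means are SD over 3 arrays per group. SEs and p-values rest on the spread within groups over all 13 arrays, those of the GFP crypt cells included, and so can differ from what the SDs show.

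Array medians ran from 8.4 to 8.7 in hair bulge and from 8.1 to 8.2 in Villus, and between 60.1 and 60.6 percent of genes were above the receptor level on each of the 6 arrays. Across genes, which are not independent replicates, the 3 hair bulge arrays correlated with each other at 0.978 to 0.989, the Villus arrays at 0.987 to 0.992, and a hair bulge array with a Villus array at 0.685 to 0.699. The intestinal crypt cells lay between them in this measure: hair bulge arrays had a median correlation of 0.797 with GFP_High and 0.781 with GFP_Low, and Villus arrays 0.824 with GFP_High and 0.880 with GFP_Low. Of all 17098 genes, 9292 (54.3%) were called changed, 4607 (26.9%) higher and 4685 (27.4%) lower in hair bulge. The 3 hair bulge values and the 3 Villus values did not overlap for 10208 genes (59.7%). A log2 difference of at least 2 was reached by 3248 genes (19%), of which 1620 (9.47%) were higher and 1628 (9.52%) lower in hair bulge. In 579 of these higher genes Villus was not above the receptor level, and in 546 of the lower genes hair bulge was not. The median log2 difference of all genes was -0.04, and the shares given here are the background against which each gene group is read.

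**Figure D1:**
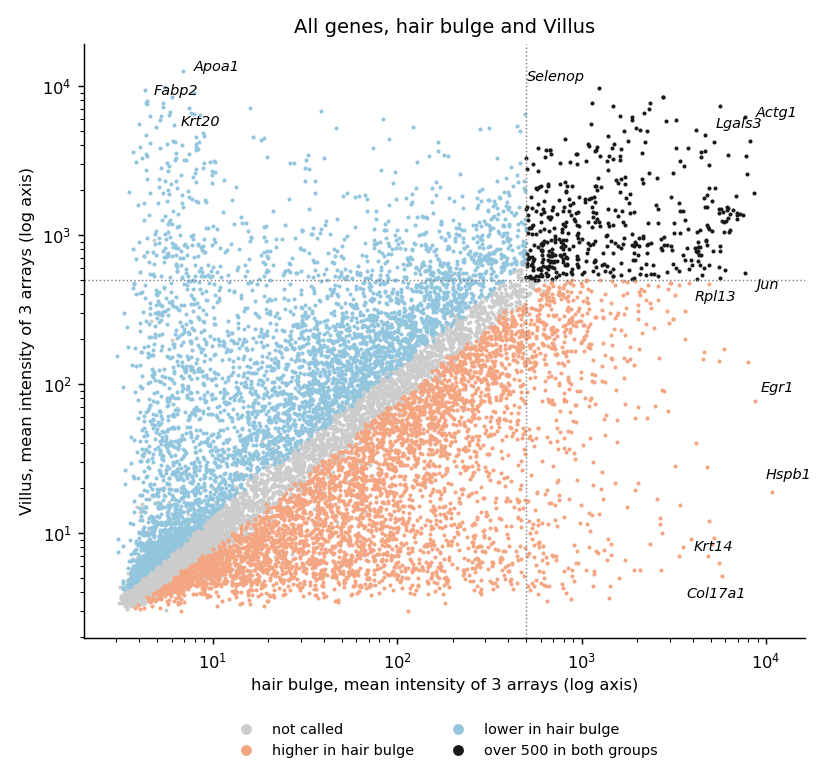
Mean intensity over 3 arrays of each of 17098 genes in hair bulge (x axis) and Villus (y axis), both axes log, coloured by the direction of the call, with the 449 genes over 500 in both groups in black and the limit of 500 as dotted lines. Genes leave the diagonal on both sides in about equal number, 4607 higher and 4685 lower in hair bulge.

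The marker genes separated the tissues on every array. Krt14, a keratin of basal cells, gave 5549, 3947 and 7179 in the hair bulge arrays, against 6, 6.4 and 6.3 in the Villus arrays. It was at least 683-fold higher in hair bulge (log2 difference 9.76, SE 0.18, adjusted p = 1.73e-14). The Krt14 probe set is of a kind the manufacturer marks as sharing probes with other transcripts, so related keratins may add to it. Krt5, its partner, was at 4961, 5335 and 4418 in the hair bulge arrays, against 11.4, 8.9 and 15.8 in the Villus arrays (log2 difference 8.71, SE 0.18, adjusted p = 7.11e-14). Apoa4, an apolipoprotein that enterocytes secrete on chylomicrons, gave 5.9, 7.2 and 5 in the hair bulge arrays, against 8584, 8183 and 8643 in the Villus arrays and was at least 1072-fold lower in hair bulge (log2 difference -10.47, SE 0.36, adjusted p = 7.08e-12). Alpi, the intestinal alkaline phosphatase of the brush border, was at 7.9, 7.7 and 6.8 in the hair bulge arrays, against 6804, 7291 and 7127 in the Villus arrays, at least 895-fold lower (log2 difference -9.89, SE 0.35). Neither pair of tissue markers came near to overlapping. Fos, an immediate early transcription factor that answers many stimuli within minutes, was high in both: 8979.5, 7743 and 9156 in the hair bulge arrays, against 1929, 2124 and 1682 in the Villus arrays (log2 difference 2.18, SE 0.19, adjusted p = 2.12e-07). Lgr5 itself, the receptor for R-spondins whose locus drives the reporter, had 479, 539.7 and 687 in the hair bulge arrays, against 6.8, 4.8 and 6.6 in the Villus arrays. It was at least 71.1-fold higher in hair bulge (log2 difference 6.55, SE 0.46, adjusted p = 1.63e-08), which goes against the label that gives the Villus samples a high Lgr5 level, and its mean of 568.5 in hair bulge lay beside 649.8 ± 118 in GFP_High (SD, n = 4).

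**Figure D2:**
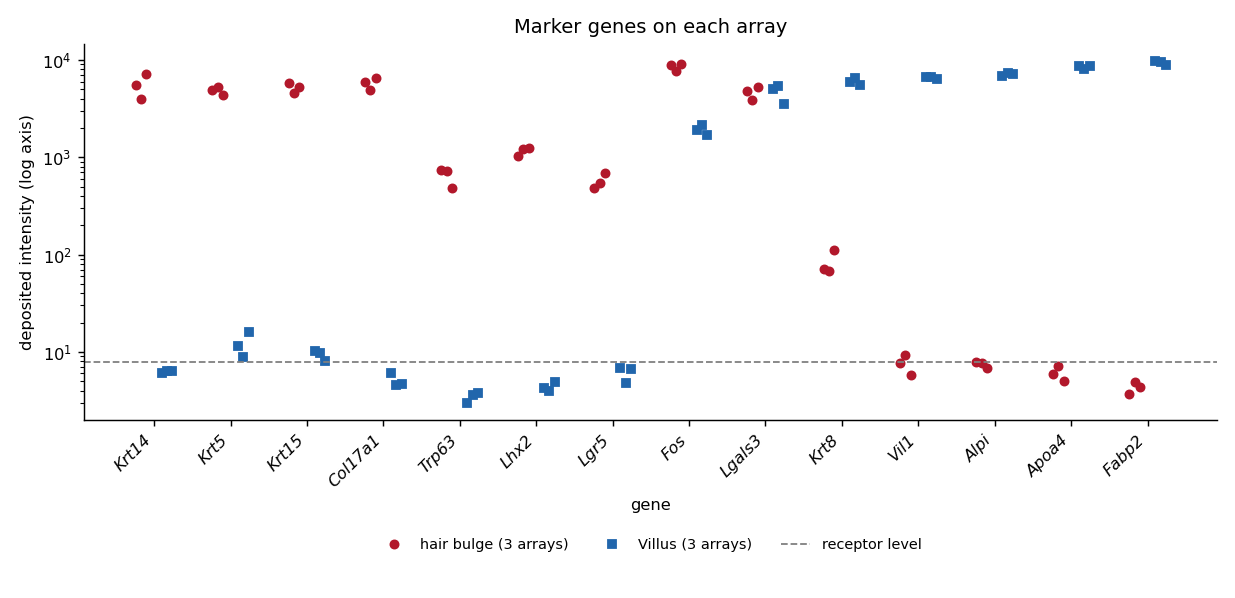
Intensity of 14 genes on each array (log axis), 1 point per array, with hair bulge points left of Villus points for each gene and the receptor level of 7.9 as a dashed line. Krt14, Krt5 and Lgr5 are high only among the hair bulge points, Apoa4 and Alpi only among the Villus points, and Fos is at 1682 or above on all 6 arrays.

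Keratins form the intermediate filaments of epithelia as pairs of an acidic type I and a basic type II protein. Of 9 measured keratins of basal cells and the outer root sheath, 8 were higher in hair bulge and none lower, with a median log2 difference of 6.89 against -0.04 for all genes. Krt15, a keratin long used to mark the bulge, gave 5824, 4542 and 5317 in the hair bulge arrays, against 10.1, 9.7 and 8 in the Villus arrays (log2 difference 9.14, SE 0.34). Krt16, a keratin of the outer root sheath and of activated epidermis, was at 960.5 ± 193 in hair bulge and 6.3 ± 0.61 in Villus, at least 120.0-fold higher. The 1 member not called was Krt6b (5.03 ± 1.53 against 4.33 ± 0.4), while its near copy Krt6a stood at 1103 ± 656 against 8 ± 1.47, and probes for the pair can share sequence. Of 6 keratins of simple epithelia, 5 were lower in hair bulge and none higher. Krt20, typical of differentiated enterocytes, gave 6.7, 6.3 and 4.5 in the hair bulge arrays, against 6453, 6482 and 6209 in the Villus arrays, at least 808-fold lower. Krt8, the type II keratin of single-layered epithelia, remained above the receptor level in hair bulge, at 70.7, 68.5 and 112 in hair bulge, against 5986, 6612 and 5553 in Villus (log2 difference -6.21, SE 0.18), and Krt19 was at 9.93 ± 2.57 against 855 ± 70.1.

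The same opposition is seen between next-door genes. Keratin genes lie in 2 clusters, type I on chromosome 11 and type II on chromosome 15, and their order was taken from the RefSeq annotation of GRCm38.p6 after the values had been seen. In the type I cluster 20 of 27 keratin genes were measured: 6 were higher, 3 lower and 11 not called, and 9 of the 20 were not above the receptor level in either group. Krt15 and Krt19 are immediate neighbours there, and Krt15 averaged 5228 in hair bulge and 9.27 in Villus, whereas Krt19 averaged 9.93 in hair bulge and 855 in Villus. In the type II cluster 21 of 27 were measured, with 9 higher, 4 lower, 8 not called and 6 not above the receptor level in either. Krt8, which averaged 83.8 in hair bulge and 6050.3 in Villus, is followed by its type I partner Krt18, the only type I gene in that cluster, at 53.3 ± 13.4 in hair bulge and 530.0 ± 73.4 in Villus. On the other side of Krt8, a little before it, lie Krt79 (363 ± 191 against 6.7 ± 1.25), which marks the upper hair follicle, and Krt77 (1716 ± 636 against 6.53 ± 0.35), a suprabasal keratin, both higher in hair bulge. Hair shaft keratins such as Krt31, Krt33a and Krt35 were near the receptor level in both groups. Of the keratin-associated protein genes inside the type I cluster, Krtap17-1 was higher, at 663.5 ± 191 in hair bulge and 4.37 ± 0.29 in Villus. The other measured ones were not called, except Krtap31-1, called lower with neither group above the receptor level.

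**Figure D3:**
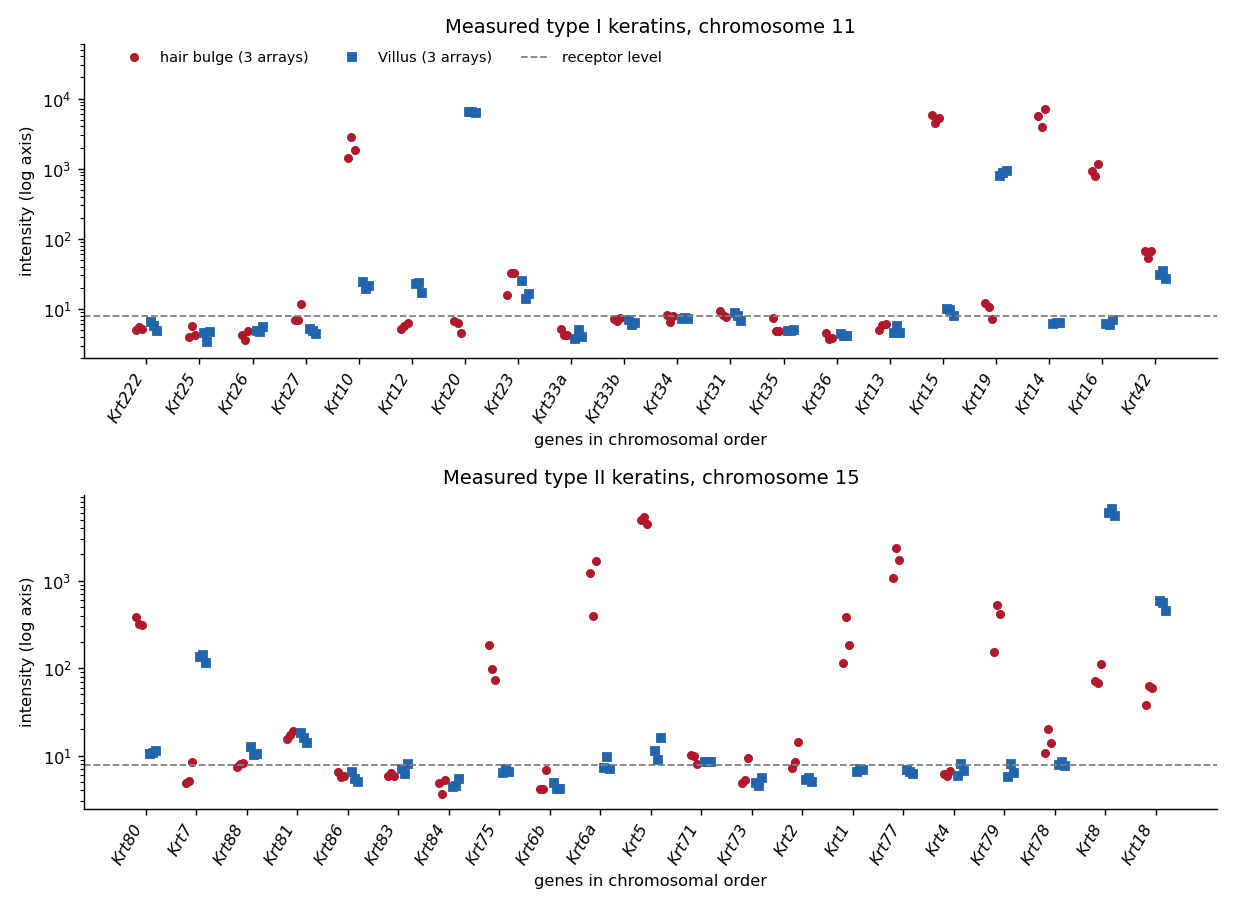
Intensity on each array (log axis) of the measured keratin genes in their order along the type I cluster (chromosome 11) and the type II cluster (chromosome 15), 1 point per array, hair bulge left of Villus for each gene, with the receptor level as a dashed line. The neighbours Krt15 and Krt19 are high in opposite groups, as are Krt79 and Krt8, and 9 of the 20 type I genes and 6 of the 21 type II genes are not above the line in either group.

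Genes of the cell layers above the basal one were high in hair bulge as well. In stratified epithelium these layers make the cornified envelope, a sheet of cross-linked protein under the membrane of the outermost cells. Of 35 measured suprabasal and cornified envelope genes 29 were higher in hair bulge and none lower (median log2 difference 4.00). Krt10, the keratin that replaces Krt14 as cells leave the basal layer, gave 1409, 2841 and 1830.0 in the hair bulge arrays, against 24.3, 19.1 and 21.5 in the Villus arrays (log2 difference 6.50, SE 0.23). Lor, the bulk protein of the envelope, was at 491, 988 and 1053 in hair bulge, against 5.6, 6.4 and 5.5 in Villus. No hair bulge value came near a Villus value for either gene. Lgals7, a galectin of stratified epithelia, averaged 5060.2 ± 964 in hair bulge and 8.43 ± 1 in Villus. Serpinb2, a protease inhibitor of suprabasal cells, averaged 1405 ± 180.1 in hair bulge and 3.67 ± 0.5 in Villus, at least 177-fold higher. Not all envelope genes had such levels: Flg, filaggrin, gave 13.3 ± 4.85 against 3.7 ± 0.1, and Ivl, involucrin, gave 12.6 ± 5.19 against 9.53 ± 1.99 and was not called changed. The part of skin cells from outside the bulge in these values was not tested.

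Sbsn, Dmkn and Krtdap, 3 secreted peptides of stratified epithelium that are neighbours on chromosome 7, were all higher. Dmkn gave 4830.0, 4736 and 5039 in the hair bulge arrays, against 7.5, 6.5 and 6.9 in the Villus arrays (log2 difference 9.45, SE 0.11), and Krtdap 1222, 3009 and 1571 in the hair bulge arrays, against 6.1, 5.3 and 5.4 in the Villus arrays (log2 difference 8.33, SE 0.24). Sbsn was at 4785 ± 915 in hair bulge and 27.6 ± 9.85 in Villus (log2 difference 7.49, SE 0.26). Their promoter windows are shown because the 3 genes lie side by side, were all higher and hold the letters of a known factor, from 250 bases before to 50 after the RefSeq start (GRCm38.p6), with matches to the AP-1 letters TGANTCA, which FOS and JUN dimers bind, in capitals. Each window runs 5′ to 3′ on the gene's plus strand: Sbsn chr7:30751221-30751520 with 2 matches, Dmkn chr7:30763506-30763805 with 1 match that begins at position -89 from the start, and Krtdap chr7:30787655-30787954 with 1 match at -81.
Sbsn: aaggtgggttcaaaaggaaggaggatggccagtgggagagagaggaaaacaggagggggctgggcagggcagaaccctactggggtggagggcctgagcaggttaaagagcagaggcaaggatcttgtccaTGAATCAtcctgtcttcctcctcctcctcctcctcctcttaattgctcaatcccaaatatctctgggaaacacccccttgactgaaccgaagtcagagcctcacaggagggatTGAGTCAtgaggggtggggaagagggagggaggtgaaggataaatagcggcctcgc
Dmkn: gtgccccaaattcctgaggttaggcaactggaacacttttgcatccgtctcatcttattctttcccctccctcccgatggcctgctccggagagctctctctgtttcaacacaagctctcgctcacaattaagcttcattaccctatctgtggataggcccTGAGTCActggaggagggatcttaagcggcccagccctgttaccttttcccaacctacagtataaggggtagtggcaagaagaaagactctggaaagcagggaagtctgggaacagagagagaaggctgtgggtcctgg
Krtdap: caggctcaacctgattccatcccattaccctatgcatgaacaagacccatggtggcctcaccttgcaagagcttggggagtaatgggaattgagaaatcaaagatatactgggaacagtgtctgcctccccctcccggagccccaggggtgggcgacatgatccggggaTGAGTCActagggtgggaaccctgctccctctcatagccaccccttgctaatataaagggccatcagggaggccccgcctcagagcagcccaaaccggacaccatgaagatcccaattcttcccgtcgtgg
The matches were part of the choice, and a match is a description of the sequence and not evidence that a factor was bound.

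Attachment to the basement membrane was the next group with a marked difference. Of 25 measured genes of hemidesmosomes and the basement membrane, 17 were higher and 2 lower in hair bulge (median log2 difference 1.53). Col17a1, the transmembrane collagen of the hemidesmosome, had the largest positive difference of all genes with groups apart: 5946, 4911 and 6464 in the hair bulge arrays, against 6.1, 4.6 and 4.7 in the Villus arrays, at least 726-fold (log2 difference 10.14, SE 0.17, adjusted p = 1.03e-14). Basement membrane components that the epithelium lays down were also higher, with Npnt, a ligand of integrin α8, at 619 ± 86.8 in hair bulge and 5.47 ± 0.64 in Villus and the collagen IV chain Col4a1 at 538 ± 242 in hair bulge and 9.03 ± 3.65 in Villus. The integrin that binds laminin in the hemidesmosome differed less than these. Itga6, its α chain, gave 915, 666 and 867 in the hair bulge arrays, against 635, 732 and 508 in the Villus arrays (log2 difference 0.39, SE 0.15, adjusted p = 0.0481), and 1 Villus value lies above the lowest hair bulge value. Its call was lost in limma on the 6 arrays alone and without either hair bulge replicate 1 or 3 or Villus replicate 1 or 3 (adjusted p = 0.0795 to 0.216). Itgb4, the β chain, was higher, at 701 ± 106 against 243 ± 35.3 (log2 difference 1.53, SE 0.16). Fras1 (20.8 ± 7.98 against 31.8 ± 5.43) and Itga3 (74.8 ± 15.7 against 118 ± 10.6) were the 2 lower members, and leaving out any array except hair bulge replicate 2 removed 1 or both calls.

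Cell-to-cell junctions used different members of the same families. Among 23 genes of desmosomes and adherens junctions 12 were higher and 8 lower in hair bulge. The desmosomal cadherin Dsc3 was at 2138, 1840.5 and 2210.2 in hair bulge, against 5.8, 5.2 and 5.8 in Villus (log2 difference 8.52, SE 0.14), whereas its relative Dsc2 was at 36.7, 18.2 and 34.1 in hair bulge, against 773, 854 and 810.2 in Villus (log2 difference -4.84, SE 0.24). Plakophilins, which link desmosomal cadherins to keratin, behaved likewise, with Pkp1 at 1524 ± 149 against 21.7 ± 1.47 and Pkp2 at 21.9 ± 8.29 against 252 ± 25.7. Cdh17, the intestinal cadherin, gave 6.2 ± 1.37 against 5506 ± 179, at least 697-fold lower in hair bulge, while the placental cadherin Cdh3 was at 122 ± 29.8 against 11.2 ± 0.86. Among general epithelial components, Cdh1 and Ctnnb1, β-catenin, were not called. Cdh1 averaged 1614 ± 100.4 in hair bulge and 1953 ± 146 in Villus, and Ctnnb1 3794 ± 236 in hair bulge and 3819.6 ± 252 in Villus. Of 19 tight junction genes 5 were higher and 12 lower (median log2 difference -1.58). Cldn1, the claudin of the epidermal barrier, was at 409.9, 645 and 516 in hair bulge, against 3.8, 4.1 and 4.4 in Villus, at least 65.1-fold higher, against the majority. Cldn7 was at 8.1 ± 1.71 against 3900.1 ± 267 and Cldn15, a claudin that forms sodium pores in the intestine, at 15.5 ± 4.61 against 1071 ± 19.9.

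Transcription factors known from hair follicle stem cells and their skin lineage were higher as a group. Of 39 measured, 35 were higher in hair bulge and 1 lower (median log2 difference 4.12), and 37 were above the receptor level in hair bulge against 16 in Villus. Lhx2, a LIM homeobox factor that keeps bulge cells in the stem cell state, gave 1028, 1212 and 1237 in the hair bulge arrays, against 4.2, 4 and 4.9 in the Villus arrays, at least 146-fold higher (log2 difference 8.05, SE 0.13, adjusted p = 7e-15). Trp63, which encodes p63, was at 732, 717 and 488 in the hair bulge arrays, against 3, 3.6 and 3.8 in the Villus arrays, at least 80.3-fold. For both genes every hair bulge value lay far above every Villus value, and Trp63 was lowest in hair bulge replicate 3. Sox9, needed to set the stem cells aside, averaged 907 ± 259.7 in hair bulge and 8.23 ± 0.7 in Villus and Nfatc1, which holds them quiescent, 345 ± 121 in hair bulge and 14.6 ± 1.66 in Villus. The Iroquois factors Irx5 and Irx3 averaged 873 ± 89.8 in hair bulge and 3.6 ± 0.26 in Villus and 1189.6 ± 293 in hair bulge and 7.57 ± 2.04 in Villus, in that order. Exceptions were Vdr, the vitamin D receptor (1085 ± 129.5 against 1223 ± 269), and Ovol1 (104 ± 8.88 against 113 ± 13.8), which were not called and were present in both tissues, Foxn1, at the receptor level in both, and Sox11, called lower with neither group above that level, a call lost without hair bulge replicate 1 or 3 or Villus replicate 1. Among Hox genes, which set the position along the body axis, 16 of 34 were higher and 3 lower. The share called, 55.9%, was close to the 54.3% of all genes. Only 19 of the 34 were above the receptor level in 1 or both groups. Hoxc8 was at 271, 347 and 226 in hair bulge, against 3.8, 4.2 and 4 in Villus, at least 35.1-fold higher, and the 2 lower members with the largest difference, Hoxb13 and Hoxa13, averaged under 9 in both groups. Without hair bulge replicate 3, 5 Hox genes were called lower.

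Surface and secreted genes of the bulge followed, with 31 of 33 higher and 1 lower (median log2 difference 4.98). Cd34, the surface protein by which mouse bulge cells are commonly sorted, gave 756, 585 and 1113 in hair bulge, against 4.4, 3.9 and 3.5 in Villus. Ccn2, a matrix protein and target of YAP, was at 3253, 3487 and 3398 in the hair bulge arrays, against 9.9, 6.6 and 4.6 in the Villus arrays, at least 428-fold higher (log2 difference 8.98, SE 0.24). Postn, periostin, was at 3414, 2897 and 4265 in the hair bulge arrays, against 8, 10 and 6 in the Villus arrays, at least 441-fold (log2 difference 8.80, SE 0.20). Both are matricellular proteins, and neither was above 9 on average in Villus. Plet1, a surface protein of the follicle junction zone and the bulge's surroundings, averaged 2668 ± 202 in hair bulge and 11.4 ± 1.1 in Villus. Lgr6, a relative of Lgr5 that marks cells above the bulge, was low but called, at 51.3 ± 26.9 against 9.4 ± 0.66. Itga9 was the lower member (5.17 ± 0.32 against 7.63 ± 1.27), with neither group above the receptor level, and Igfbp5 was not called (26.2 ± 2.04 against 24.5 ± 1.64).

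Of 34 Wnt pathway genes 19 were higher and 2 lower in hair bulge (median log2 difference 0.83). The share called was 61.8%, against 54.3% of all genes. Wnt ligands bind Frizzled receptors and stabilise β-catenin. Sfrp1, which captures Wnt ligands outside the cell, was at 1219, 1633 and 1288 in hair bulge, against 7.3, 6.5 and 6 in Villus, at least 173-fold higher (log2 difference 7.70, SE 0.15), and Dkk3 and Wif1, further secreted antagonists or relatives of them, were at 421 ± 125 against 6.2 ± 0.56 and 67.3 ± 13.9 against 4.5 ± 0.56. Of the receptors, Fzd2 was at 503, 363 and 463 in hair bulge, against 7.1, 9.2 and 6.2 in Villus and Fzd7 at 843 ± 83.6 against 110.4 ± 14.1, whereas Fzd5 was not called (366 ± 125 against 405 ± 53.7). Axin2, a common transcriptional target of the pathway, did not pass the test, at 70.3, 74 and 95 in the hair bulge arrays, against 96.4, 90.5 and 55.7 in the Villus arrays (log2 difference 0.01, SE 0.20, adjusted p = 0.978), and Lef1, higher by the test, stayed below the receptor level in both groups. Rnf43, a ubiquitin ligase that removes Frizzled receptors, was lower, at 18.3 ± 2.36 against 39.5 ± 3.06, while the call of Wnt6, the other lower member (6.77 ± 0.31 against 8.7 ± 0.95), was lost without any 1 array except Villus replicate 2.

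In the BMP and TGF-β pathway 24 of 33 genes were higher and 2 lower (median log2 difference 1.26). The ligand Bmp2 averaged 1333 ± 431 in hair bulge and 156 ± 40.5 in Villus, and Fst, follistatin, which traps activin and BMPs, was at 1534, 787 and 1193 in hair bulge, against 5.1, 5.2 and 6.4 in Villus, at least 143-fold higher (log2 difference 7.67, SE 0.24). The Id genes, direct targets of BMP signalling that hold back basic helix-loop-helix factors, were all 4 higher. Id4 was at 1355, 1033 and 1301 in hair bulge, against 7.7, 7.7 and 6.7 in Villus, at least 155-fold, whereas Id1 differed less, at 2098 ± 486 against 599.6 ± 91.6 (log2 difference 1.79, SE 0.32). Bmp8a went the other way (7.6 ± 0.1 against 195 ± 37.8). In the Hedgehog pathway 10 of 15 were higher and 1 lower. Its signal transducer Smo averaged 242 ± 52.95 in hair bulge and 6.57 ± 1.22 in Villus, the transcription factor Gli2 350.1 ± 69.8 in hair bulge and 7.67 ± 0.81 in Villus and the target Gli1 161 ± 93.4 in hair bulge and 4.07 ± 0.21 in Villus, with Villus below the receptor level for all 3. The lower member was the ligand Ihh, which enterocytes send to the tissue beneath, at 5.4, 4 and 4.9 in hair bulge, against 54.8, 73.1 and 46.2 in Villus. Notch genes were less one-sided, with 10 higher and 5 lower of 21. The receptor Notch1 gave 1309, 1112 and 1050.0 in hair bulge, against 24.7, 18 and 20.1 in Villus (log2 difference 5.79, SE 0.17) and the ligand Jag1 263 ± 45.9 against 7.5 ± 1.11, while Numb, an inhibitor, was lower (175 ± 18.4 against 551 ± 39.9). Of 14 EGF receptor family genes 7 were higher and 4 lower. Egfr averaged 454 ± 58.8 in hair bulge and 64.1 ± 11.97 in Villus and the epidermal ligand Epgn 584 ± 365 in hair bulge and 8.03 ± 0.91 in Villus, whereas Erbb3, a family member with little kinase activity, averaged 422 ± 25.1 in hair bulge and 2144 ± 533 in Villus.

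The genes lower in hair bulge were led by the absorptive functions of the enterocyte. All 27 measured genes of fat absorption were lower, with a median log2 difference of -6.45. Fabp2, an intracellular fatty acid carrier, had the most negative difference of all genes with groups apart: 3.7, 4.9 and 4.3 in the hair bulge arrays, against 9761, 9559 and 8889 in the Villus arrays, at least 1189-fold (log2 difference -11.10, SE 0.16, adjusted p = 6.12e-15). Apoa1 gave 8.5, 6.5 and 5.8 in the hair bulge arrays, against 12744, 12698 and 12421 in the Villus arrays, at least 1598-fold lower (log2 difference -10.85, SE 0.31). The summed intensity of the list ran from 1341 to 1722 on hair bulge arrays and from 89124 to 91037 on Villus arrays. Apoa1, Apoc3 and Apoa4 are neighbours on chromosome 9. Apoc3, an inhibitor of lipoprotein lipase, was at 5.5 ± 0.26 against 9906 ± 391 there, while the next gene, Apoa5, which is known from the liver, was not above the receptor level in either group (6.27 ± 0.68 against 7.17 ± 0.95).

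Brush border hydrolases, which cut sugars and peptides at the cell surface, were lower for 18 of 22 members, and none was higher (median log2 difference -6.46). Mgam, maltase-glucoamylase, was at 6.2, 4.7 and 6 in hair bulge, against 4433, 4566 and 3222 in Villus, at least 509.5-fold lower, and Enpep, an aminopeptidase, at 4.4 ± 0.66 against 3380.4 ± 307. The microvilli that carry them are bundles of actin, and 20 of 24 genes of their structure were lower and 3 higher. Vil1, villin, was at 7.7, 9.3 and 5.8 in the hair bulge arrays, against 6639, 6687 and 6447 in the Villus arrays, at least 834-fold lower (log2 difference -9.79, SE 0.16), and Cdhr2, a cadherin that ties microvilli together at their tips, at 4.17 ± 0.49 against 3279 ± 255. Fscn1, another actin bundler, was higher, at 728, 789 and 412 in hair bulge, against 4.4, 4.2 and 4.5 in Villus, at least 78.3-fold, and was the single higher member left without hair bulge replicate 3 or Villus replicate 3. Of 22 transporters of sugars, amino acids and peptides, 16 were lower and 5 higher. Slc5a1, the sodium-coupled glucose transporter, gave 8.6, 10 and 8.1 in hair bulge, against 5103, 4710.0 and 4687 in Villus (log2 difference -9.09, SE 0.20). The 2 with the largest difference in the other direction were general amino acid carriers, Slc38a2 at 5137, 3713 and 4969.8 in hair bulge, against 167, 169 and 154 in Villus (log2 difference 4.80, SE 0.24) and Slc7a5 at 257 ± 8.37 against 8.53 ± 0.95. For ions, metals, vitamins and bile acids 23 of 27 transporters and carriers were lower and 2 higher. S100g, which ferries calcium through the enterocyte, was at 7.37 ± 3.51 against 1964 ± 521, and Slc12a2, a basolateral chloride importer, was higher, at 410.0 ± 32.1 against 56.6 ± 9.79.

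Enzymes that clear drugs and process retinoids had the most negative median of the 49 lists, -7.01, and 37 of 39 were lower in hair bulge. Cyp3a11, a P450 enzyme of broad range, gave 4.4, 4.4 and 4.4 in the hair bulge arrays, against 7599, 8486 and 6584 in the Villus arrays, at least 951-fold lower (log2 difference -10.74, SE 0.44). The single higher member was Cyp1b1, a P450 found in many tissues outside the gut and liver, at 68.4, 66.8 and 139.6 in hair bulge, against 3.8, 4.8 and 4.8 in Villus. Of 31 intestinal transcription factors 24 were lower and 2 higher (median log2 difference -3.03). Hnf4a, a nuclear receptor that drives enterocyte genes, was at 7.3, 7.1 and 10 in the hair bulge arrays, against 2179, 2367 and 2219 in the Villus arrays (log2 difference -8.13, SE 0.14, adjusted p = 1.04e-14). Cdx2, the homeobox factor that specifies intestine, averaged 8.77 ± 0.67 in hair bulge and 408 ± 50.2 in Villus and Gata4, a factor of the upper small intestine, 7.87 ± 1.26 in hair bulge and 124 ± 4.46 in Villus. Hair bulge was below or close to the receptor level for all 3. Klf4, a factor of differentiated cells in both epithelia, was higher, at 4972, 3768 and 5531 in hair bulge, against 1878, 2263 and 1443 in Villus (log2 difference 1.36, SE 0.34), as was the repressor Bcl6 (519.8 ± 122 against 43.1 ± 20.7). Klf5 (194 ± 34.9 against 286 ± 55.2), Tcf7l2 (276 ± 55.8 against 251 ± 47.99) and Smad4 (656 ± 55.96 against 733 ± 126) were not called.

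Promoter windows of 3 genes lower in hair bulge are shown because they hold letters bound by factors of the last group, HNF4 or CDX. Matches are in capitals: CAAAGTC, part of the repeat bound by HNF4, in Alpi (chr1:87101557-87101856, minus strand, position -19) and Cdhr2 (chr13:54701213-54701512, plus strand, position -20), and TTTATNG, the CDX letters, in Fabp1 (chr6:71199629-71199928, plus strand, 3 matches). Both strands were searched, and the CDX letters can overlap those of a TATA box read on the other strand.
Alpi: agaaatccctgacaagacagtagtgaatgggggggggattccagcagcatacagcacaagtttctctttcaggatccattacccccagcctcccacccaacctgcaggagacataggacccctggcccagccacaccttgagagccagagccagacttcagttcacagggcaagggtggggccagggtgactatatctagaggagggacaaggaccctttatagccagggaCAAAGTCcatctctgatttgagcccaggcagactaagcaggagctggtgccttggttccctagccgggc
Cdhr2: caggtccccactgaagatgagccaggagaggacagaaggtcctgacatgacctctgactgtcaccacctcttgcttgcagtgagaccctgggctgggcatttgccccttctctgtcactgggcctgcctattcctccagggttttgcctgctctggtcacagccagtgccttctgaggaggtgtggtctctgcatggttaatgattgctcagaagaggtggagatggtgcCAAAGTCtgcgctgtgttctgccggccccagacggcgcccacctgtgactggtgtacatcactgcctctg
Fabp1: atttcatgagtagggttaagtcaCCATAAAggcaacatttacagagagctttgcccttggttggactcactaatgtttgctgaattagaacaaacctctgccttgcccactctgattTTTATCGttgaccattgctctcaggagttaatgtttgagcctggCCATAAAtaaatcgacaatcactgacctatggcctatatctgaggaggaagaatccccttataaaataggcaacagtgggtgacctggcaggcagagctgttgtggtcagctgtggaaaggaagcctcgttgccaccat
Among the 100 genes with the largest positive difference, 80 had a RefSeq window, and among the 100 with the largest negative difference 84. The CAAAGTC letters occurred in 2.5% of the first, 15.5% of the second and 4.91% of 13514 genes with a window. The CDX letters occurred in 15%, 28.6% and 9.74%, in the same order, and the GATA letters TGATAA in 7.5%, 20.2% and 6.61%. The AP-1 letters shown above were in 12.5%, 10.7% and 7.65%, so they were no mark of the hair bulge genes alone. The AP-2 letters GCCNNNGGC were in 26.2%, 9.52% and 25.2%, and the TATA letters TATAAA in 28.8%, 31% and 11.8%. These shares are descriptions without a test.

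**Figure D4:**
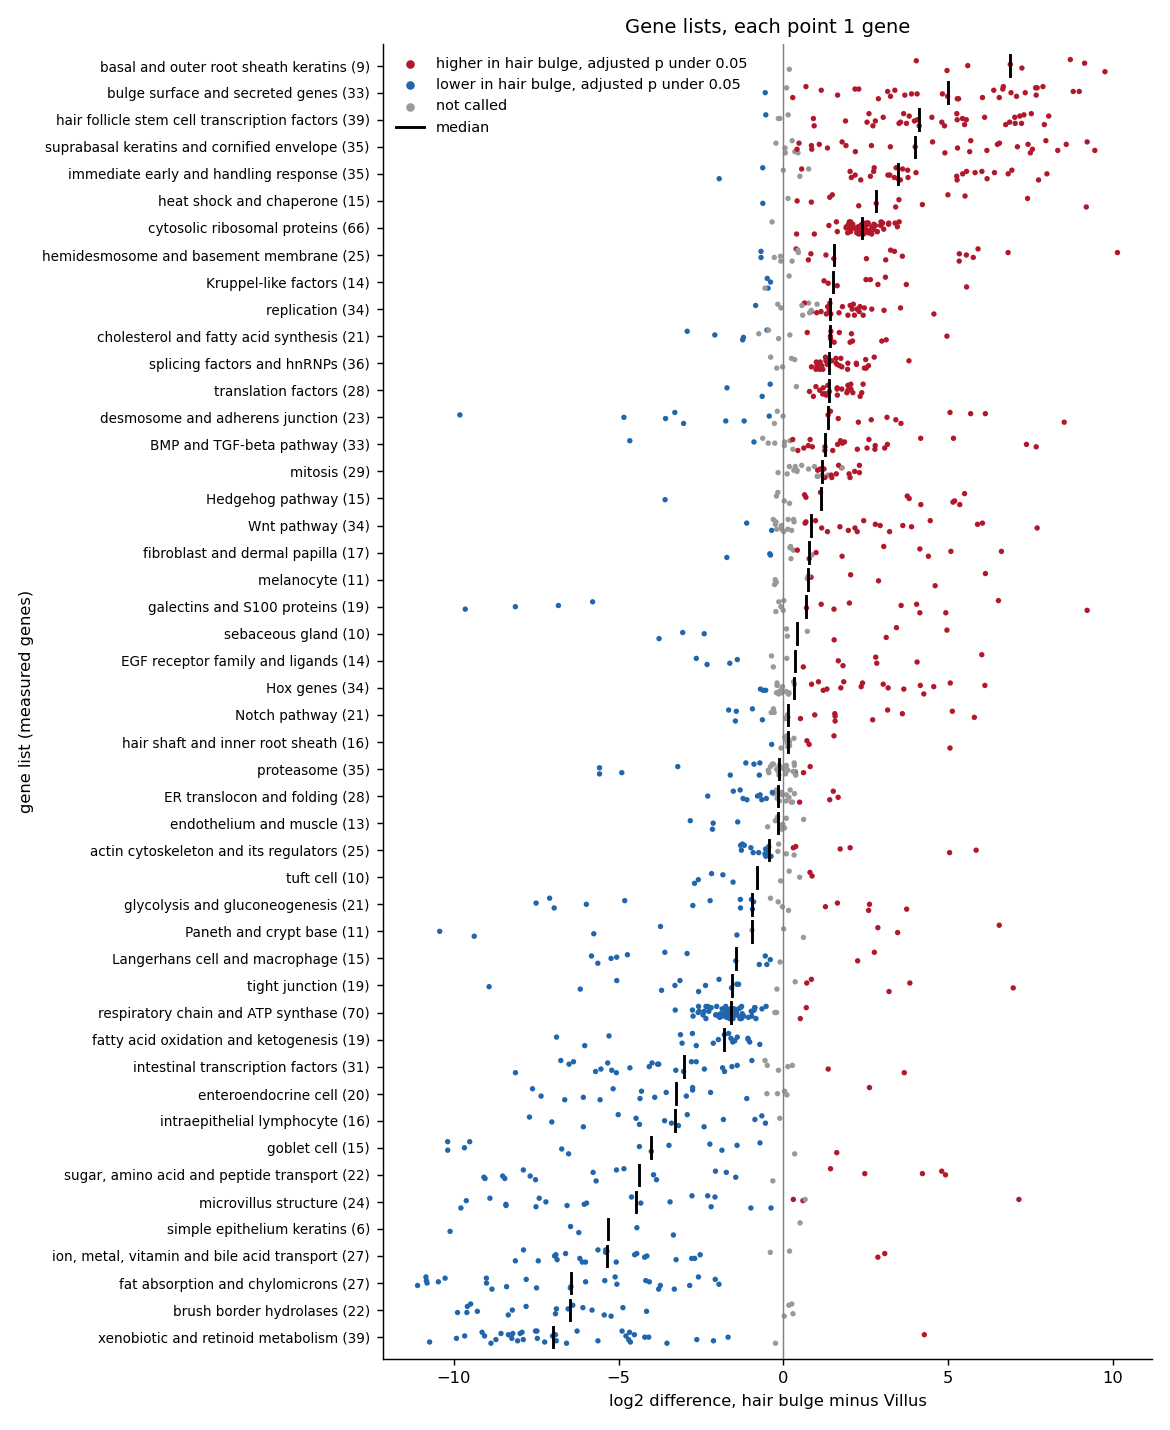
Log2 difference (hair bulge minus Villus) of every measured gene of the lists with 6 or more measured genes, 1 point per gene, coloured by call, with a black bar at each list's median. Basal and suprabasal keratin, follicle stem cell and early response lists lie to the right. Simple epithelium keratin, absorptive and xenobiotic lists lie to the left. The ribosomal and respiratory lists are narrow, with medians of 2.38 and -1.60.

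Several lists of core cell machinery differed too. Of 66 measured cytosolic ribosomal protein genes 65 were higher in hair bulge and none lower, with a median log2 difference of 2.38. Rpl12 was at 3219.7, 3235 and 2929.8 in the hair bulge arrays, against 284, 265 and 272 in the Villus arrays (log2 difference 3.51, SE 0.11) and Rps19 at 5164, 4985 and 4472 in hair bulge, against 419, 448 and 532 in Villus (log2 difference 3.39, SE 0.14). The geometric mean of the list was 4103, 4260 and 3875 on the hair bulge arrays and 829, 745 and 851 on the Villus arrays. It was 3702 to 4936 on the 7 GFP arrays of crypt cells, so the Villus arrays stood apart from the other 10. Translation factors followed, with 24 of 28 higher and 3 lower, as did splicing factors and hnRNPs, with 31 of 36 higher and none lower (median 1.38). Eef1b2, part of the factor that reloads elongation factor 1, averaged 2909 ± 201 in hair bulge and 560.1 ± 45.6 in Villus, and Hnrnpa1, an abundant RNA-binding protein, 1121 ± 160.1 in hair bulge and 80.1 ± 13.6 in Villus. For Eif3f, called lower, another probe set was called the other way, and only 1 translation factor was lower without hair bulge replicate 3, Villus replicate 1 or Villus replicate 2. Without hair bulge replicate 2, 1 ribosomal protein gene and 1 splicing gene were called lower.

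Genes of the respiratory chain and ATP synthase went the opposite way: 66 of 70 were lower in hair bulge and 2 higher (median log2 difference -1.60). Sdhb, the iron-sulfur subunit of succinate dehydrogenase, gave 351, 434 and 263 in the hair bulge arrays, against 2279.8, 2260.5 and 2331 in the Villus arrays (log2 difference -2.74, SE 0.16) and Ndufb7, of complex I, 112, 214 and 106 in hair bulge, against 1407, 1329 and 1254 in Villus (log2 difference -3.28, SE 0.23). The geometric mean of the list was 457, 607 and 366 on the hair bulge arrays, 1455, 1347 and 1361 on the Villus arrays and 1312 to 1618 on the 7 GFP arrays, and here it was the hair bulge arrays that stood apart. Fatty acid oxidation and ketogenesis were lower for all 19 measured genes. Cpt2, the inner carnitine palmitoyltransferase, was at 21.1, 25.4 and 24.5 in hair bulge, against 752, 1048 and 1005 in Villus (log2 difference -5.29, SE 0.24). In glycolysis and gluconeogenesis 12 of 21 were lower and 5 higher. The gluconeogenic enzymes G6pc (5.6 ± 0.26 against 708 ± 166) and Fbp1 (4.03 ± 0.32 against 564 ± 160.4) were lower, at least 87.99-fold and 69.7-fold, whereas the hexokinases Hk2 (929.6 ± 273 against 71.8 ± 28.9) and Hk1 (122 ± 21.6 against 20.3 ± 5.74), which trap glucose in the cell, were higher. Cholesterol and fatty acid synthesis was higher for 12 of 21 genes and lower for 5, with Sqle, squalene epoxidase, at 454 ± 152 against 56.9 ± 15.6. In the proteasome list 12 of 35 genes were called (3 higher, 9 lower), a smaller share than the 54.3% of all genes. The immunoproteasome subunits Psmb8 (19.4 ± 5.25 against 906 ± 52.6), Psmb9 (16.1 ± 2.35 against 481 ± 29.5) and Psmb10 (24.8 ± 5.52 against 1168 ± 88.5), which are induced by interferon, had the largest differences there. Without hair bulge replicate 2, 15 proteasome genes were lower, and without hair bulge replicate 3, 5 were higher. In the list of the ER translocon and protein folding 4 of 28 were higher and 10 lower (median log2 difference -0.15), and in that of the actin cytoskeleton 6 of 25 were higher and 15 lower.

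Immediate early genes, which are known to respond to tissue dissociation, were higher in hair bulge for 30 of 35 members and lower for 2 (median log2 difference 3.48). Egr1 gave 8574, 8029 and 9447 in the hair bulge arrays, against 82.9, 73 and 74.2 in the Villus arrays (log2 difference 6.82, SE 0.27, adjusted p = 3.78e-11). Nr4a1 was at 3451, 2878 and 3942 in hair bulge, against 27, 10.6 and 8.2 in Villus (log2 difference 8.0, SE 0.54) and Fosb at 2642, 1869 and 3462 in hair bulge, against 15.7, 14.2 and 7.8 in Villus (log2 difference 7.74, SE 0.45). Every one of these hair bulge values was well above every Villus value. Ptgs2, cyclooxygenase 2, was at 555 ± 170.0 against 4.4 ± 0, at least 68.05-fold higher, and Myc at 1102 ± 307 against 13.5 ± 6.03. The heat shock list went with them, with 13 of 15 higher and 1 lower. Hspb1, a small heat shock protein also found in suprabasal keratinocytes, gave 10532, 10585 and 11314 in the hair bulge arrays, against 14.4, 24.2 and 18.1 in the Villus arrays (log2 difference 9.19, SE 0.17), and Hspa1b, an inducible Hsp70 with a near-identical copy in Hspa1a, was at 5661, 5926 and 6236 in hair bulge, against 96.1, 353 and 64.9 in Villus (log2 difference 5.51, SE 0.43). Cryab was called lower by the probe set used, but its 2 other probe sets were both called higher, and the call was lost without hair bulge replicate 2 or 3 or Villus replicate 1 or 2. Of the lower immediate early genes, Ier5 (7.6 ± 0.87 against 29.5 ± 5.29) and Gadd45a (223 ± 38.04 against 347 ± 73.7), the second was lost without hair bulge replicate 1 or 2 or Villus replicate 1 or 2.

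The crypt cells, which were also treated with trypsin and sorted, lay between. The geometric mean of the 35 immediate early genes was 916, 718 and 1000.1 on the hair bulge arrays, 76.7, 75.8 and 60.4 on the Villus arrays, and 81.4 to 156 on the 7 GFP arrays. Among single genes Egr1, at 3290.4 ± 1235 in GFP_High (SD, n = 4), and Fos, at 3258 ± 803, lay between too, but Gadd45a, at 138 ± 24.9, was below both, and Ptgs2, at 4.5 ± 0.58, was close to Villus. For the 15 heat shock genes it was 1286, 1272 and 1577 on hair bulge, 134 to 196 on Villus and 283 to 346 on GFP arrays. By the methods the trypsin step was in some cases extended for skin. The part of dissociation and sorting in these values was not tested, and it cannot be told apart from the tissue. Of the 14 Krüppel-like factors, several of which are themselves early response genes, 9 were higher and 3 lower, with Klf2 at 464 ± 357 against 8.17 ± 0.83 (log2 difference 5.56, SE 0.45). The lower Krüppel-like factors were few and unstable: without any 1 array except hair bulge replicate 3, 1 or none was called.

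**Figure D5:**
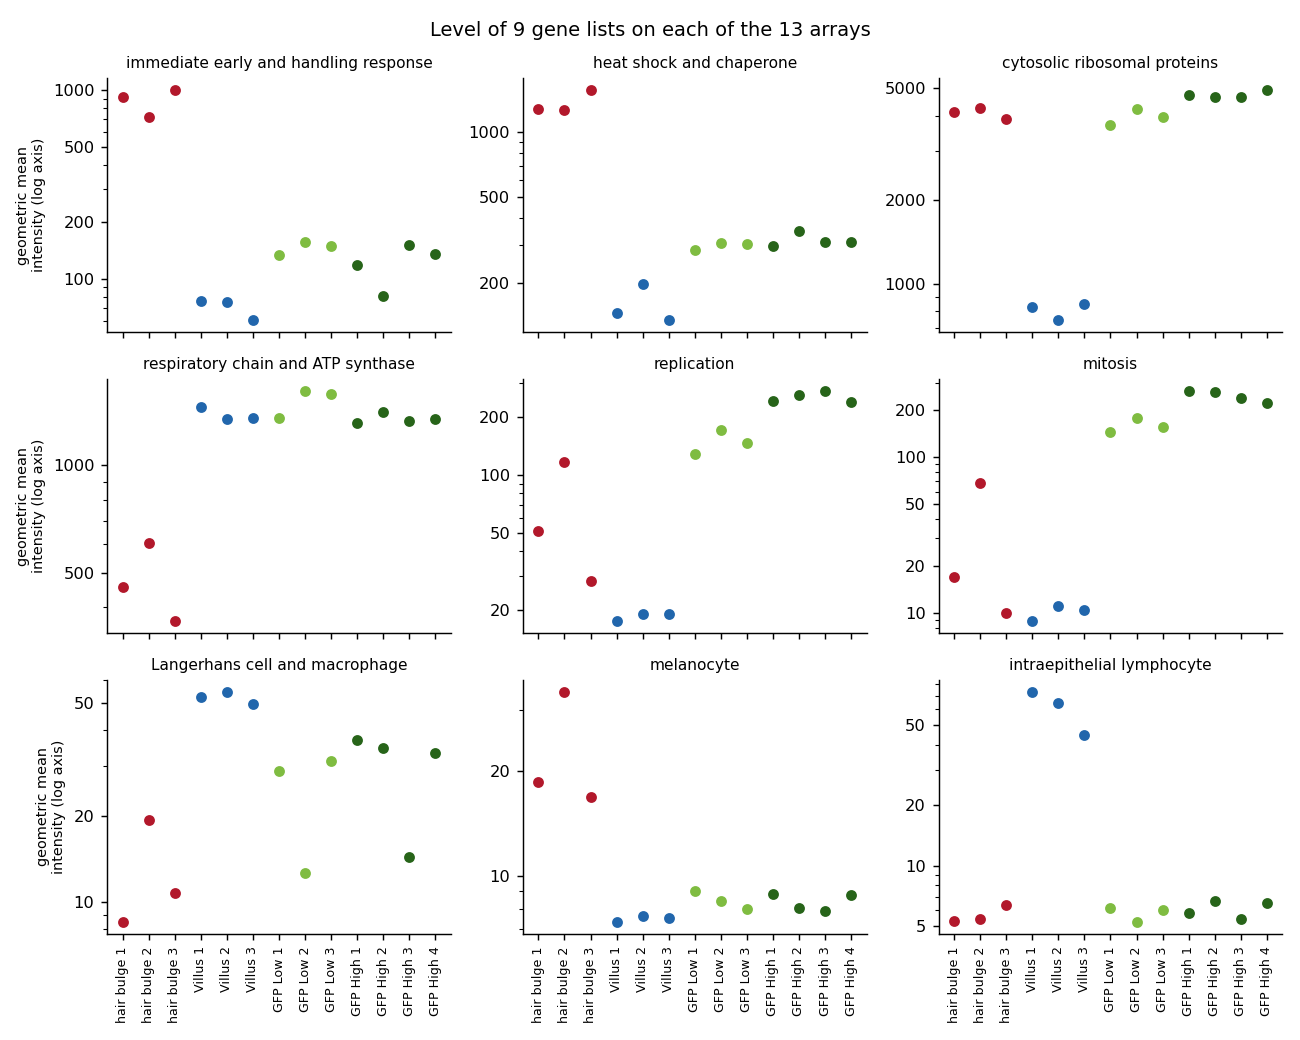
Geometric mean intensity of 9 gene lists on each of the 13 arrays (log axis), 1 point per array and 1 panel per list, with hair bulge left of Villus and the 7 GFP arrays of crypt cells to the right. Ribosomal protein genes set the 3 Villus arrays apart, respiratory chain, heat shock and immediate early genes the 3 hair bulge arrays, and in the mitosis panel hair bulge replicate 2 is at 68.0 and the other hair bulge arrays are at 16.8 and 9.96.

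Hair bulge replicate 2 differed from the other hair bulge arrays in genes of dividing cells and in some genes of other cell types. The 29 mitosis genes had geometric means of 16.8, 68.0 and 9.96 on the hair bulge arrays and of 8.8 to 11.1 on the Villus arrays, beside 145 to 266 on the GFP arrays. Top2a, the topoisomerase of dividing cells, gave 37.1, 224 and 15.4 in the hair bulge arrays, against 6.2, 15.7 and 10.8 in the Villus arrays. Only replicate 2 lay far above Villus, and replicate 3 lay close to it. In all, 14 mitosis genes were called higher and none lower. Without hair bulge replicate 2, 9 were higher and 2 lower, and without hair bulge replicate 3, 22 were higher. Without a Villus array, 8 or 9 were higher, and in limma on the 6 arrays alone, 7. The 34 replication genes, with 25 higher and 1 lower (2 lower without hair bulge replicate 2), had geometric means of 51.2, 116 and 28 in hair bulge and of 17.4 to 19.1 in Villus, all hair bulge arrays above all Villus arrays. Rrm2, a subunit of ribonucleotide reductase, was at 200.3, 218 and 169 in hair bulge, against 7.4, 8.8 and 8.5 in Villus (log2 difference 4.57, SE 0.20).

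Markers of cells other than the epithelium were measured on both sides. In hair bulge, 5 of 11 melanocyte genes were higher and none lower, and their summed intensity ran from 787 to 1024, against 88.7 to 92.8 in Villus. Dct, an enzyme of pigment synthesis, gave 148, 408 and 97.3 in the hair bulge arrays, against 5.3, 10.5 and 7.3 in the Villus arrays, again highest in replicate 2. Mitf, the melanocyte regulator, gave 632, 299 and 587 in hair bulge, against 7.8, 7.5 and 5.5 in Villus and was lowest in replicate 2 among the hair bulge arrays. Tyr, Mlana and Sox10, which define the same lineage, were not called and averaged under 15 in both groups. Without hair bulge replicate 3, 1 melanocyte gene was called lower. Cd207, langerin of Langerhans cells, was at 9.4, 139 and 13.5 in the hair bulge arrays, against 5.9, 5.3 and 5.2 in the Villus arrays and came from replicate 2 almost alone. Of 17 fibroblast and dermal papilla genes 9 were higher and 3 lower, with 1 lower when hair bulge replicate 2 or Villus replicate 1 or 2 was left out. Sparc, a matrix protein, was at 1054, 1002 and 1359 in hair bulge, against 14.4, 19.5 and 5.4 in Villus, but Col1a1 (8.8 ± 2.35 against 5.1 ± 1.31), Col1a2 (5 ± 0.2 against 4.07 ± 0.32) and Pdgfra (5.3 ± 0.26 against 3.97 ± 0.4), which define fibroblasts, were at or near the receptor level. The hair shaft and inner root sheath list had 4 of 16 higher and 1 lower, a share of calls below that of all genes. Only 6 of the 16 were above the receptor level in a group, so a low share says little about the others. The largest log2 difference in the list was 5.06, and the lower member, Padi3, averaged under 6 in both groups.

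In Villus, 15 of 16 intraepithelial lymphocyte genes were higher than in hair bulge, and their sum ran from 87.6 to 105 in hair bulge and from 2269 to 3360 in Villus. Gzma, a granule protease of killer T cells, gave 4.8, 3.9 and 6 in the hair bulge arrays, against 1129.6, 1104 and 822 in the Villus arrays, at least 128-fold lower in hair bulge. In the Langerhans cell and macrophage list 12 of 15 were lower and 2 higher in hair bulge. H2-Aa, an MHC class II chain that enterocytes also make, was at 28.3, 348 and 68.4 in hair bulge, against 2970.4, 4594 and 2617 in Villus, the highest hair bulge value again in replicate 2, and Lyz2, a lysozyme, was at 4.87 ± 0.72 against 299 ± 159. The Lyz2 probe set is of the kind marked as sharing probes, and it averaged 3860 in GFP_High and 9581 in GFP_Low, far above Villus. Genes of the secretory cells of the gut were lower as well: 13 of 15 goblet cell genes and 15 of 20 enteroendocrine genes were lower in hair bulge by the test, with the goblet peptide Tff3 at 6, 3.5 and 6.1 in hair bulge, against 6105, 5509 and 6032 in Villus and the gut hormone Gip at 8.4, 9.4 and 7.2 in hair bulge, against 2115, 1507 and 1345 in Villus. Reg3b, an antimicrobial lectin made by enterocytes and Paneth cells, was at 5.4 ± 1.54 against 7264 ± 299.7, at least 919-fold lower, whereas the Paneth cell lysozyme Lyz1 averaged only 6.3 ± 0.92 in hair bulge and 12.3 ± 2.46 in Villus. Smooth muscle genes set Villus replicate 3 apart from its fellows, with Acta2 at 8.7, 11.2 and 10.8 in hair bulge, against 142, 204 and 13 in Villus and Myh11 at 4.7, 4.3 and 4.2 in hair bulge, against 32.4, 55.2 and 4 in Villus. The part of any of these cells in the differences above was not tested.

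Genes that both tissues held at a high level were listed at a mean intensity over 500 in each group. There were 449 such genes (2.63% of 17098), which is 45.9% of the 979 genes over 500 in hair bulge and 36.0% of the 1249 over 500 in Villus. Since the rule uses the values of both groups, the counts that follow are descriptions. Ssr1, at 500 in Villus, fell exactly on the limit and was not counted. Just below it were Atp5g1, at 499 in hair bulge, and Hsd17b12, at 499 in Villus, and the nearest inside were Uqcrc1, at 500.1 in hair bulge, and Rab18, at 500.1 in Villus. Of the 449, 176 were called higher in hair bulge, 148 lower and 125 not called, so that 72.2% were called. The share over all genes, 54.3%, is not a like background, since it takes in 5480 genes above the receptor level in neither group. Above that level were 9064 genes in both groups, 1297 in hair bulge only and 1257 in Villus only. A fit of the genes above that level in 1 or both groups called 8731 of them. This is the nearer background, and the 72.2% did not exceed it. The median absolute log2 difference of the 449 genes was 0.95. Of the 449, 232 were within a log2 difference of 1 and 78 differed by 2 or more. By lists, 57 of 66 ribosomal protein genes, 31 of 70 respiratory chain genes and 17 of 25 actin cytoskeleton genes were among them. In the 7 GFP arrays of crypt cells 362 of the 449 were also over 500 in both groups.

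The 10 with the highest level were Actg1, Actb, Rpl41, Eef1a1, Cox6a1, Crip1, Tmsb10, Hspa8, Lgals3 and Chchd2, an order that also depends on the probes. Actb, β-actin, averaged 5636 ± 397 in hair bulge and 7312 ± 517 in Villus (log2 difference -0.38, SE 0.11), and Actg1, γ-actin, 7682 ± 623 in hair bulge and 6232 ± 409.6 in Villus (log2 difference 0.30, SE 0.11). Eef1a1, the elongation factor that brings tRNA to the ribosome, differed more, at 7821, 7752 and 7882 in hair bulge, against 3512, 2962 and 3722 in Villus (log2 difference 1.21, SE 0.15). Lgals3, a galectin of many epithelia, was almost level, at 4749.5, 3925 and 5288 in the hair bulge arrays, against 5039, 5430.5 and 3508 in the Villus arrays (log2 difference 0.01, SE 0.28, adjusted p = 0.975), which leaves an SE of 0.28 on either side. The smallest difference was that of Cst6, a cystatin protease inhibitor, at 584, 385 and 1529 in hair bulge, against 738, 638 and 731 in Villus. Its mean difference near 0 comes with hair bulge values on both sides of the Villus values, and without hair bulge replicate 3 it was -0.56. Ctnnb1, Atg3, an enzyme of autophagy, and Clta, a clathrin light chain, had log2 differences of -0.01, 0.01 and -0.02 with SEs of 0.11, 0.11 and 0.16, and none was called. After quantile normalization, however, Atg3 was called higher in hair bulge (log2 difference 0.30, adjusted p = 0.0418 in limma). The largest differences within the list were those of Jun, the partner of Fos, at 7790.5, 6144 and 9188 in hair bulge, against 525, 616 and 534 in Villus (log2 difference 3.77, SE 0.18), and of Selenop, a secreted selenium carrier, at 1134, 974 and 1620.4 in hair bulge, against 9485, 9066 and 10443 in Villus (log2 difference -2.99, SE 0.33).

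A few of the genes shared by hair bulge and Villus were low in the crypt cells from which the villus derives. Their choice was made after the values had been seen and carries no test. With a limit of 100 in both GFP groups there were 6 such genes, and with a limit of 250 there were 21. Nt5e, the ectoenzyme CD73 that makes adenosine, was at 928, 734 and 812 in the hair bulge arrays, against 929, 989.5 and 858 in the Villus arrays, beside 4.75 ± 0.19 in GFP_High (SD, n = 4) and 6.6 ± 1.23 in GFP_Low (SD, n = 3). Emp1, a tetraspan membrane protein, was at 2658, 1875 and 2372 in hair bulge, against 1017, 1027 and 556 in Villus, beside 9.57 ± 2.85 in GFP_High and 71.8 ± 27.5 in GFP_Low. The large scaffold protein Ahnak was at 1946, 1671 and 2017 in hair bulge, against 775, 912 and 868 in Villus, beside 13.4 ± 10.3 in GFP_High and 60.9 ± 26.4 in GFP_Low. The others were Cst6, Pxdc1 and Dusp6, the last a phosphatase that limits ERK signalling.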

How the data were processed

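Total RNA was hybridised to Affymetrix HT MG-430 PM arrays. The authors deposited 1 table of linear intensity values for 45141 probe sets on 13 arrays, made with the RMA-sketch algorithm of Affymetrix Power Tools (version not given in the sources used here), which corrects background, normalizes between arrays and summarises probes. This shrinks differences near the background and between saturated spots. Probe sets were named through the platform annotation: 28898 had 1 gene, 551 several and 15692 no name, and the last 2 kinds were left out. Where several probe sets named a gene, the one brightest on average stood for it, which left 17098 genes. The log2 values of all 13 arrays were fitted with limma 3.58.1 in R 4.3.3, 1 mean per group, and hair bulge was contrasted with Villus, with Benjamini-Hochberg adjustment at 0.05. The fit was run 5 times on simulated data with 200 changed genes and independent arrays. It recovered 73.8% of changes of log2 1 and 97.2% of log2 2, and 6.23% of calls were false. The data here have many more changed genes and arrays that share sort codes, so these rates need not hold for them. Python 3.11.15, pandas 2.3.3 and matplotlib 3.10.9 were used for summaries. Groups came from the titles and source names.

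The members and the 49 gene lists (1332 entries, 1185 measured, 1152 genes, of which 929 changed) were chosen with earlier results of these data known. Named were the 10 genes that differed most in either direction, the markers, up to 4 changed members per list and up to 2 that went against its majority, and among genes over 500 in both groups those of highest level, largest and smallest difference. Other list members, the keratin, apolipoprotein and chromosome 7 clusters, the promoters shown and the genes low in crypt cells were picked after their values had been seen. Promoter windows came from RefSeq (GRCm38.p6) and were matched by gene ID. Alternatives were the 6 arrays alone, quantile normalization, an offset of 16, a filter at the receptor level, the mean of probe sets, every probe set tested, limma-trend, the methods' t-test and leaving out each array. The number of arrays, 3 per group, limits the precision.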

Additional observations from a re-analysis of the deposited data

How the results depend on the processing

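The number of changed genes ranged from 8681 to 8924 when 1 array was left out, with 4284 to 4517 higher and 4328 to 4484 lower in hair bulge, and 3213 to 3273 at a log2 difference of 2 or more. It was 8871 with the 6 arrays alone, 9384 after quantile normalization, 8731 among genes above the receptor level, 9217 with the mean of probe sets, 9388 with limma-trend, and with the methods' t-test 6684 at their threshold and 7837 after Benjamini-Hochberg adjustment. Testing every probe set raised it to 21037, since more features were tested, and an offset of 16 lowered the number at a log2 difference of 2 or more to 2138, since it shrinks low values. The genes over 500 in both groups numbered 442 to 454 without 1 array, 151 over 1000, 863 over 300 and 233 with the geometric mean of all probe sets. The genes in lists that changed numbered 893 to 927 without 1 array.

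The share of changed genes that were higher stayed between 49.1 and 51.4 percent. With quantile normalization 11 genes of the ER list were higher, against 4, and 8 of the actin list lower, against 15, and the cause was not tested. With the mean of all probe sets Cryab (4.41) and Eif3f (0.20) changed sign, by their other probe sets. Chchd2 was not called in the main fit. It was called lower with limma-trend, an offset of 16, quantile normalization, the mean of all probe sets, and without Villus replicate 3. Among genes chosen for a difference near 0, sign changes were found after quantile normalization for Lgals3 (-0.035), Zfp706 (0.295), Ube2a (0.287), Clta (0.121) and Lpp (0.292), and with the mean of all probe sets for Dnaja2 (-0.301), Zfp706 (0.017), Atg3 (-0.027), Ctnnb1 (0.166), Clta (0.051) and Lpp (0.214). Without 1 array their differences ran from -0.081 to 0.06 for Atg3, -0.097 to 0.062 for Clta, -0.563 to 0.432 for Cst6, -0.066 to 0.043 for Ctnnb1, -0.061 to 0.052 for Dnaja2, -0.179 to 0.136 for Lgals3, -0.101 to 0.054 for Lpp, -0.106 to 0.227 for Pdlim1, -0.118 to 0.066 for Ube2a and -0.092 to 0.062 for Zfp706. Of 263 named genes with a call 26 lost it under 1 or more alternatives, mostly members with small differences such as Itga6, Fras1, Itga3, Klf3 and Actg1. Some with larger differences lost it too. In limma on the 6 arrays alone they included Top2a (2.31, adjusted p = 0.0542), Cd207 (2.25, adjusted p = 0.062) and Myh11 (-2.13, adjusted p = 0.0628). Acta2 lost its call without hair bulge replicate 1 or 3 or Villus replicate 1 or 2. No paired analysis was possible because the Villus titles carry no sort code that could tie them to a hair bulge sort. The title of hair bulge replicate 2 carries the same code as those of GFP_Low replicate 2 and GFP_High replicate 3. Other bright and dim crypt titles share codes too, and the fit treated all 13 arrays as independent. Signal close to the receptor level limits what can be told of 5480 genes that were above it in neither group.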
